A study of Homo sapiens with 4 samples.

Results

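RNA of MM.1S cells was compared with RNA of ARP-1 cells under a control hairpin. Both are established human lines of multiple myeloma, a cancer of antibody-secreting plasma cells. The comparison used 2 of the 4 arrays of the series, 1 array per line, chosen by their titles (CTR-KO MM.1S and CTR-KO ARP-1), and every difference is given as MM.1S minus ARP-1 on the log2 scale, where 1 unit is a 2-fold difference. The other 2 arrays held the same lines under a hairpin against MIF (titled MIF-KO). All 4 cell populations, the controls included, had been infected with a lentivirus that carries a hairpin and had been sorted for the green marker GFP, so none was an untouched line, and the name KO stands for a knockdown. With 1 array per side there is no spread between replicates, and no difference given here has an error or a test. Precision is limited by the number of arrays.

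Plasma cells are B lymphocytes that have closed down the B cell programme under the factors PRDM1, IRF4 and XBP1 and have turned to the bulk synthesis of immunoglobulin. Myeloma lines fall into classes by the translocation that placed an oncogene beside the immunoglobulin heavy-chain enhancers. MM.1S is known for a translocation that drives the transcription factor MAF and for its sensitivity to glucocorticoids. With a single array per line, a difference between the lines and one between these cultures or arrays cannot be told apart.

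The titles and the genotype labels agree for every array, but for each ARP-1 array the description field gives the opposite condition. Each result was therefore also computed with the ARP-1 array titled MIF-KO as the control, which is called the exchanged comparison here. MIF itself, the target of the hairpin, had log2 intensities of 10.09 and 9.08 on the CTR-KO and MIF-KO arrays of ARP-1, and 9.98 and 8.66 on those of MM.1S. It was lower on the array titled MIF-KO in each line, and the arrays titled CTR-KO differed by -0.11. A gene was represented by its brightest probe set, and 7442 of 14884 named genes passed a filter on the mean over the 4 arrays (log2 4.97 or more). The median of all probe sets, 3.72, served as a mark of low signal.

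Plasma cell transcripts were present in both lines on all arrays. IRF4 lay between 11.81 and 12.10 over the 4 arrays. XBP1 was at 9.86, 10.37, 10.10 and 10.04 in the order CTR-KO ARP-1, MIF-KO ARP-1, CTR-KO MM.1S and MIF-KO MM.1S, and the secretory cofactor MZB1 at 9.14, 9.60, 9.27 and 8.64 in that order. Of the B cell factors that plasma cells shut off, PAX5 stayed between 4.42 and 4.67, under the filter but above the low-signal mark. The surface receptor CD22 stayed between 3.15 and 3.30, under both. Few other B cell genes were well detected. Of 19 named here 8 lay under the low-signal mark on all arrays, while LYN, KLHL6, SPI1 and SPIB, 4 in all, passed the filter. LYN read 9.40, 8.85, 9.29 and 9.52 in the same order. SPI1 lay between 5.12 and 5.50 and SPIB between 5.16 and 5.57, near the filter. PRDM1, TNFRSF17 and MS4A1 were not analysed here. In bulk RNA of a line, fewer cells that express a gene and less RNA per cell cannot be told apart. Of the 15 plasma cell genes that passed, 0 were 2-fold higher and 1 was 2-fold lower on CTR-KO MM.1S. The shares of all genes were 3.88% and 2.79%. Their median difference was 0.11 for the plasma cell genes. In the MIF-KO pair 12 of the 15 were below 0, with 1 gene 2-fold higher (the syndecan SDC1) and 1 lower (the survival kinase PIM2). The lower gene of the control pair was CD38, an ectoenzyme and antibody target, at 6.83, 5.39, 5.36 and 5.81 in the same order, a difference of -1.47.

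Between the control arrays 289 of 7442 genes were at least 2-fold higher in MM.1S and 208 at least 2-fold lower, which is 3.88% and 2.79% of the genes. At 4-fold the counts were 36 (0.484%) and 8 (0.107%), and at 1.5-fold 834 (11.2%) and 829 (11.1%). The median difference over all genes was -0.02, with quartiles at -0.31 and 0.28. Just inside the 2-fold line lay MYO1D at 1.002 and SMIM13 at -1.002, and just outside it CBS at 0.997 and TXLNG at -0.999. These 4 genes mark the edge only, and were picked for their place there.

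For nearly all of these genes CTR-KO ARP-1 was the most extreme of the 4 arrays. It was the lowest of the 4 arrays for 287 of the 289 higher genes and the highest for 198 of the 208 lower ones. For 390 of these 497 genes the other 3 arrays lay within 2-fold of each other. CTR-KO MM.1S was the opposite extreme for 349 genes, with the other 3 within 2-fold for 161. The choice of genes by the gap between these arrays favours both as extremes. Counted over pairs of arrays, which share arrays with one another, 497 genes were 2-fold apart between the control arrays, 491 between the ARP-1 arrays and 185 between CTR-KO ARP-1 and MIF-KO MM.1S. The 3 pairs without CTR-KO ARP-1 had 66, 82 and 171 such genes, the smallest count lying between CTR-KO MM.1S and MIF-KO ARP-1. At 1.5-fold 778 genes lay apart between CTR-KO ARP-1 and MIF-KO MM.1S, and 937 between the MIF-KO arrays. By these counts CTR-KO ARP-1 did not stand apart from all 3 other arrays.

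The arrays under the MIF hairpin, which share no array with the control pair, gave another view of the same lines. There 95 genes were 2-fold higher in MM.1S (1.28%) and 76 lower (1.02%), together 2.3% of genes against 6.68% in the control pair. Of the 497 genes apart in the control pair, 137 had the same sign in the MIF-KO pair, 5 of them at 2-fold, and 360 (72.4%) had the opposite sign, 52 of them at 2-fold. Over all genes 63.0% had opposite signs in the pairs. The 289 higher genes had a median of -0.20 there and the 208 lower genes a median of 0.46. In the exchanged comparison, which shares the MM.1S array with the control pair, 25 genes were 2-fold higher in MM.1S (0.336%) and 41 lower (0.551%), and it kept 10 of the 289 and 14 of the 208.

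**Figure D1:**
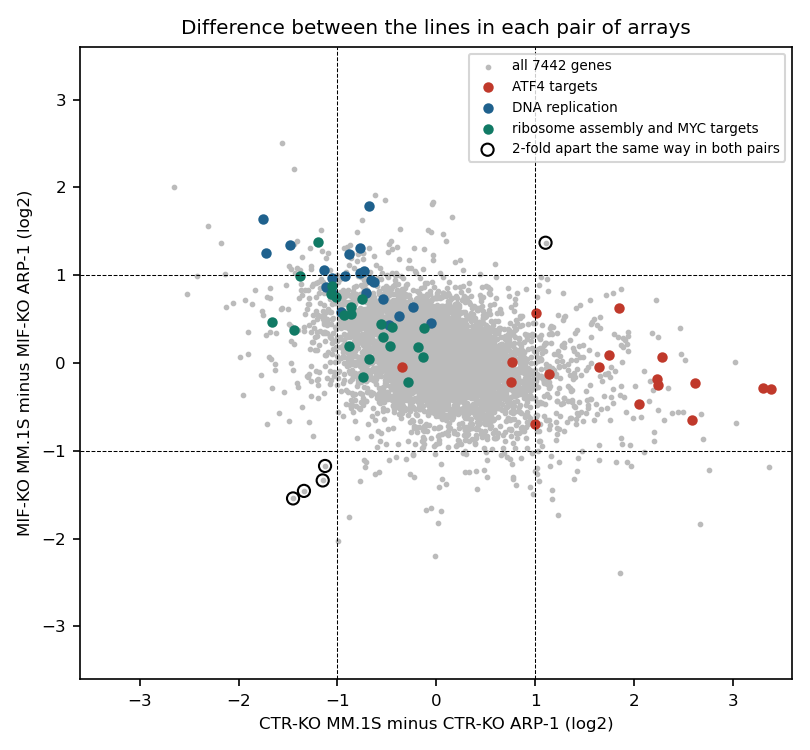
Difference between the lines for each of 7442 genes, as MM.1S minus ARP-1 in log2 units, on the arrays titled CTR-KO (horizontal) and on those titled MIF-KO (vertical); dashed lines mark 2-fold. ATF4 targets lie far to the right with vertical values mostly near 0, DNA replication genes lie in the upper left, and the 5 circled genes were 2-fold apart the same way in both pairs.

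Without a limit on size, both MM.1S arrays lay on one side of both ARP-1 arrays for 2036 of 7442 genes (27.4%), and few of these were far apart. At 2-fold in the same direction in both pairs there were 1 higher and 4 lower genes, and at 1.5-fold 28 higher and 24 lower. Of these 28 and 24 genes, 23 and 17 were also 1.5-fold apart in every one of the 4 cross comparisons between an ARP-1 and an MM.1S array. In the MIF-KO pair by itself 8.22% of genes were 1.5-fold higher and 4.37% lower, and 0.0403% were 4-fold apart in each direction. No gene was 4-fold apart the same way in both pairs. The 5 genes at 2-fold were MOCOS, CD37, NCKAP1L, MIR221 and MIR222, of which the microRNA genes fall outside the rule for named genes and were named after their values were seen.

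MIR221 and MIR222 encode a pair of neighbouring microRNAs that share a seed, the bases that pair with target transcripts, and that are known to repress the CDK inhibitor CDKN1B. Their hairpins lie 748 bases apart on the minus strand of the X chromosome (GRCh38.p14, chrX:45746157-45746266 and chrX:45747015-45747124). The mature sequences of the 3p arms are shown because both genes separated the lines together, with the seed (bases 2 to 8) in capitals, from RefSeq.
hsa-miR-221-3p: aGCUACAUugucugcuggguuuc
hsa-miR-222-3p: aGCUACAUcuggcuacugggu
These were the 2 mature sequences with this seed among the 2351 in the table. The probe set named MIR221 read 8.64 and 9.21 on the CTR-KO and MIF-KO arrays of ARP-1, against 7.30 and 7.76 on those of MM.1S. That of MIR222 read 5.53 and 5.94 against 4.38 and 4.60. Both were lower on each MM.1S array than on each ARP-1 array, with differences of -1.34 and -1.15 in the control pair and -1.46 and -1.34 in the MIF-KO pair. Probe sets named for a microRNA gene tell neither the arms apart nor how much mature microRNA was present. MIR142, the gene of a microRNA of blood cells, was also lower in MM.1S, at 6.19 and 7.13 against 7.91 and 7.82 (differences of -1.72 and -0.70), and was likewise named after its values were seen. Of other microRNA genes 1.5-fold apart in both pairs, MIR4675 (-0.80 and -0.85) and MIR3621 (-0.73 and -1.11) were lower in MM.1S. MIR3194 was higher (0.73 and 0.76).

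Of the protein-coding genes, MOCOS, which activates molybdenum cofactor enzymes, read 6.41 and 6.51 on the ARP-1 arrays and 7.52 and 7.88 on the MM.1S arrays, differences of 1.11 and 1.37. CD37, a tetraspanin of mature B cells, read 7.84 and 8.23 in ARP-1 and 6.39 and 6.68 in MM.1S (-1.45 and -1.54). NCKAP1L, the blood-cell subunit of the WAVE complex that drives actin branching, read 8.18 and 7.94 against 7.05 and 6.77 (-1.13 and -1.17). For these 3 genes the ranges of the lines did not overlap. Within each line their arrays lay closer together than the arrays of the pair did. The genes were picked on these arrays for being apart the same way in both pairs, which favours both traits.

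Smaller differences of the same kind were seen in genes of several roles. Higher on both MM.1S arrays were GOLM1, a Golgi membrane protein (1.07 in the control pair and 0.98 in the MIF-KO pair), the opsin OPN3 (1.12 and 0.95), the WNT inhibitor NKD2 (1.04 and 0.89) and PMAIP1, a BH3-only inducer of apoptosis also called NOXA (1.13 and 0.82). The growth factor PDGFA (0.82 and 0.80), the helicase DHX32 (1.87 and 0.84) and the pseudogene ADCY10P1 (0.91 and 0.85) were higher as well. Lower on both MM.1S arrays were PAPSS2, which makes the sulfate donor PAPS (-0.996 and -2.03), the nuclease family member ANGEL1 (-1.25 and -0.83), and the zinc-finger genes ZNF134 (-0.88 and -1.75) and ZNF8 (-0.77 and -1.35). RWDD2B (-0.72 and -1.19) was lower too, as was the pseudogene GGT3P (-0.69 and -0.69), whose probe set can share signal with other copies of its family.

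**Figure D2:**
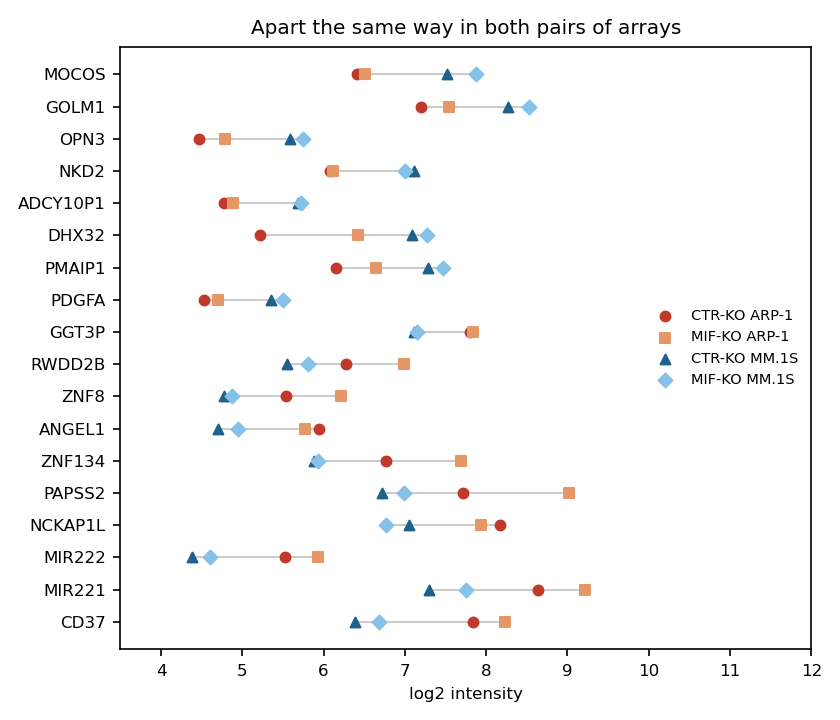
Log2 intensity on each of the 4 arrays for 18 genes apart the same way in both pairs of arrays: the 8 per direction with the largest smaller-of-pairs difference among genes other than microRNAs and long intergenic RNAs, and MIR221 and MIR222. For each gene both MM.1S arrays (triangle and diamond) lie on one side of both ARP-1 arrays (circle and square), with CD37 and MIR221 lower in MM.1S and MOCOS higher.

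The 12 largest positive differences of the control pair included CTH, SESN2 and ERN1. CTH, which makes cysteine from cystathionine, read 6.70 and 9.89 on the CTR-KO and MIF-KO arrays of ARP-1, and 10.09 and 9.60 on those of MM.1S, a control difference of 3.39. SESN2, a leucine sensor that restrains mTORC1, read 6.90, 9.75, 10.20 and 9.46 in the same order (3.31). ERN1, the IRE1 kinase and nuclease that senses unfolded protein, read 6.84, 9.04, 9.87 and 8.37 (3.03). In all 3 genes the 2 MM.1S arrays and MIF-KO ARP-1 were high and CTR-KO ARP-1 alone was low. The differences of the MIF-KO pair were -0.29 for CTH, -0.29 for SESN2 and -0.68 for ERN1.

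CTR-KO ARP-1 was also the lowest array for the other 9 of the 12 most positive genes. TXNIP, an inhibitor of thioredoxin and of glucose uptake, differed by 2.70 in the control pair and -0.87 in the MIF-KO pair. The vesicle protein SYT11 differed by 2.76 and -1.21, the calpain family member CAPN6 by 3.02 and 0.01, and the lipid kinase relative PIP5KL1 by 2.68 and -0.58. HCP5, a non-coding gene of the HLA region, differed by 2.67 and -1.84, the pseudokinase TRIB3 by 2.62 and -0.23, the secreted glycoprotein STC2 by 2.59 and -0.65 and the prolidase PEPD by 2.52 and 0.04. The galectin pseudogene LGALS17A, at 3.37 and -1.18, lay under the low-signal mark on CTR-KO ARP-1 (3.05), so the size of its difference is uncertain. In the exchanged comparison these 12 genes lay between -0.36 (SYT11) and 0.83 (ERN1), with SYT11, HCP5 and STC2 below 0.

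The 3 largest negative differences were in ACTL8, RPP40 and ADA. ACTL8, an actin relative otherwise known from testis, read 8.01, 4.78, 5.36 and 6.79 in the order CTR-KO ARP-1, MIF-KO ARP-1, CTR-KO MM.1S and MIF-KO MM.1S (-2.65). RPP40, a protein subunit of RNase P and RNase MRP, read 7.21, 4.58, 4.69 and 5.37 (-2.52). ADA, the adenosine deaminase of purine salvage, read 8.31, 6.52, 5.88 and 7.51 (-2.42). For each of these CTR-KO ARP-1 was the highest array, with MIF-KO MM.1S second. MIF-KO MM.1S was above MIF-KO ARP-1 in the other pair, by 2.01 for ACTL8, 0.78 for RPP40 and 0.99 for ADA.

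The membrane repair protein MYOF differed by -2.31 in the control pair and 1.56 in the MIF-KO pair, the RNA polymerase III subunit POLR3G by -2.18 and 1.37, and GLDC, which breaks down glycine, by -2.14 and 1.01. The heat-shock protein HSPH1 differed by -1.94 and 0.72. VAV1, an exchange factor of lymphocyte receptor signalling, differed by -1.99 and 0.07, the ubiquitin ligase adaptor KBTBD8 by -1.96 and -0.37, and the homeobox factor DLX2 by -1.91 and 0.10. The aspartic protease NAPSA (-2.13 and 0.63) and NCR3, an activating receptor of natural killer cells (-2.06 and 0.69), complete the 12. Of these genes only KBTBD8 had the same sign in both pairs. In the exchanged comparison KBTBD8 was at -1.11 and VAV1 at -0.91, while ACTL8 was at 0.58, MYOF at 0.32 and RPP40 at 0.10, above 0.

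**Figure D3:**
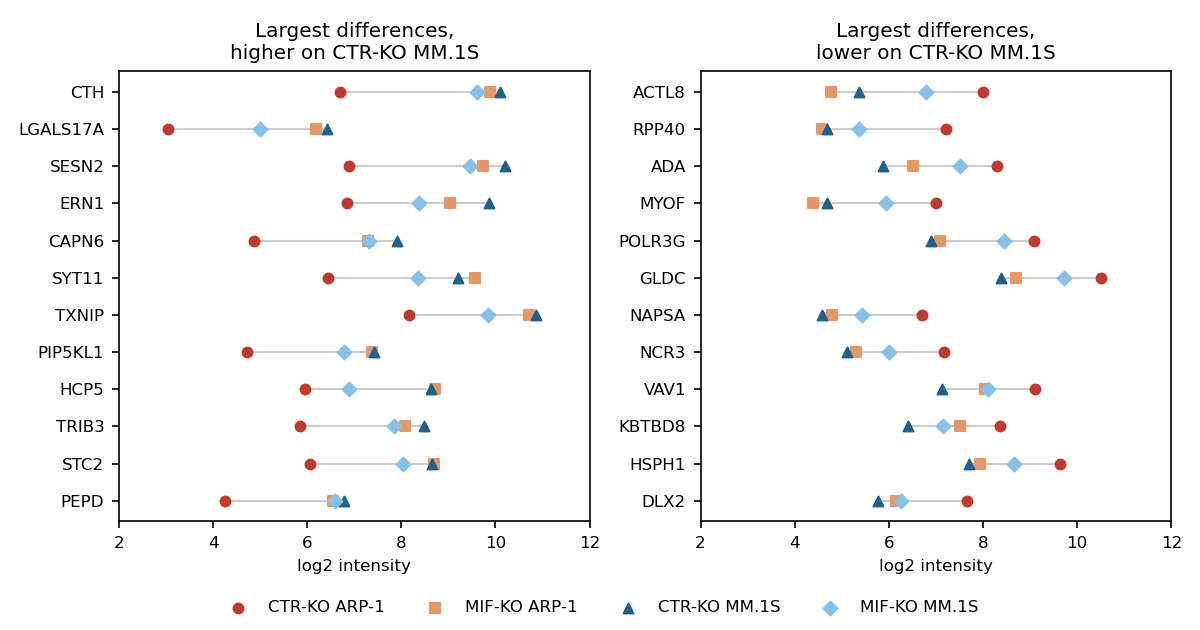
Log2 intensity on each of the 4 arrays for the 12 genes with the largest difference in each direction between the control arrays. CTR-KO ARP-1 (circles) lies at one end for every gene, as for CTH at 6.70 against 9.60 to 10.09 on the other arrays, and the other 3 arrays lie closer together for most genes.

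Targets of ATF4, the factor that switches on amino acid synthesis and transport when translation is stressed, formed the most displaced list. Of 37 members 20 were named here and 17 passed the filter, and 13 of these 17 were 2-fold higher on CTR-KO MM.1S and 0 lower, against 3.88% and 2.79% of all genes. Their median difference was 1.85, against -0.02 over all genes. This list, like the others here, was chosen with earlier results of these data known, so its rank and count are a description. PHGDH, the first enzyme of serine synthesis, read 6.93, 9.01, 9.18 and 8.76 in the order CTR-KO ARP-1, MIF-KO ARP-1, CTR-KO MM.1S and MIF-KO MM.1S (2.25). DDIT4, an inhibitor of mTORC1, read 7.96, 9.89, 10.24 and 9.96 (2.28). ATF3, a partner factor of ATF4, read 4.49, 5.89, 6.34 and 6.52 (1.85), and was the member with the largest difference in the MIF-KO pair that kept its sign (0.63). The list as a whole did not separate the lines in that pair, where 5 of 17 were above 0, 0 were 2-fold apart and the median was -0.18. The exchanged median was 0.11.

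The enzymes that charge tRNAs, several of which ATF4 also drives, had a median difference of 0.59. Of 18 that passed, 4 were 2-fold higher and 0 lower, against 3.88% and 2.79% of all genes, and 14 were above 0. Seryl-tRNA synthetase SARS1 read 7.52, 8.99, 9.17 and 8.84 in the same order (1.65). The cysteinyl enzyme CARS1 differed by 1.42, the glycyl enzyme GARS1 by 1.27 and the alanyl enzyme AARS1 by 1.25. EPRS1 at 0.91 and MARS1 at 0.92 stayed under 2-fold. The median of the list was 0.15 in the MIF-KO pair and 0.08 in the exchanged comparison.

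Promoters were read for the lists of ATF4 targets, DNA replication genes, and ribosome assembly genes and MYC targets. Other lists displaced together, such as nucleotide synthesis, were not read. The RefSeq windows of 300 bases run from 250 before to 50 after each gene's start. The element that ATF4 binds with a C/EBP partner was searched as TGATGNAA on both strands. It was found in 2 of 15 ATF4 target promoters (ASNS and ATF3), against 3.67% of all 27305 promoters in the table and 1.51% of those of the 5948 genes that passed the filter and had a window. ASNS, the asparagine synthetase, differed by 2.23 in the control pair. The genes printed here were chosen for holding a match. The 250 bases before each start are shown to place the element, with the match in capitals.
ASNS (GRCh38.p14, minus strand, chr7:97872409-97872658): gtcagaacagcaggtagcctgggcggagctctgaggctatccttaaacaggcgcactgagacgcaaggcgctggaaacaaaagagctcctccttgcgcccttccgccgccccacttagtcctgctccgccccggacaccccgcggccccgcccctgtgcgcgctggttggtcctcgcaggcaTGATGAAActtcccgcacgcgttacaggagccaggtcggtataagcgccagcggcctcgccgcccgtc
ATF3 (GRCh38.p14, plus strand, chr1:212565157-212565406): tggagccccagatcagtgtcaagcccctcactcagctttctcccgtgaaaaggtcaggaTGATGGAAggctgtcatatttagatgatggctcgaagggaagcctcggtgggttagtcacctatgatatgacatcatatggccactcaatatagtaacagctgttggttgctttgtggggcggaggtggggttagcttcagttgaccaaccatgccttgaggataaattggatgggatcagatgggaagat
The match began 68 bases before the start of ASNS and 191 before that of ATF3. A match describes the letters alone.

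DNA replication genes were lower on CTR-KO MM.1S than on CTR-KO ARP-1 throughout the list. All 22 members that passed were below 0, while 48.4% of all genes lay above 0. Of the 22, 7 were 2-fold lower and 17 were 1.5-fold lower, against 2.79% and 11.1% of all genes. The median was -0.77. GINS2, of the helicase that unwinds the fork, read 8.18, 6.21, 6.43 and 7.85 in the order CTR-KO ARP-1, MIF-KO ARP-1, CTR-KO MM.1S and MIF-KO MM.1S (-1.75). DSCC1, which loads the sliding clamp and cohesion factors, read 7.04, 5.52, 5.31 and 6.77 (-1.73). CTR-KO ARP-1 and MIF-KO MM.1S were the high arrays for both genes, and CTR-KO MM.1S and MIF-KO ARP-1 the low ones. The fork protection factors TIPIN (-1.48) and TIMELESS (-1.12), the helicase subunit MCM2 (-1.13) and the checkpoint mediator CLSPN (-1.06) differed the same way. In the MIF-KO pair all 22 were above 0 and 9 were 2-fold higher in MM.1S, against 56.6% and 1.28% of all genes. The median there was 0.96, and the exchanged median was 0.22. The order of the lines in replication genes was the reverse in the other pair.

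Regulators of entry into S phase were lower on CTR-KO MM.1S as well (21 passed, median -0.45). At least 2-fold lower were 4 of the 21 and higher 0, against 2.79% and 3.88% of all genes. The phosphatase CDC25A, which activates CDK2, differed by -1.44 in the control pair and 1.35 in the MIF-KO pair. The factor E2F3 differed by -1.36 and 0.77, cyclin CCNE2 by -1.15 and 1.06, and the D cyclin CCND3 by -1.01 and 0.27. The list's median was 0.46 in the MIF-KO pair. Mitosis genes lay closer together, with 0 of 23 at 2-fold, a median of -0.11, and CCNB1, the mitotic cyclin, as the widest at -0.70.

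Genes of nucleotide synthesis followed the replication genes. The list had a median of -0.68 in the control pair and 0.56 in the MIF-KO pair. All 22 that passed were below 0 in the control pair, 3 of them at 2-fold, against 2.79% of all genes. Next to ADA these were DHODH of pyrimidine synthesis (-1.09 and 0.61 in the MIF-KO pair) and the purine salvage enzyme HPRT1 (-1.01 and 0.92). PNP, a phosphorylase of the same salvage route, was lower in both pairs (-0.95 and -0.22). The first purine enzyme PPAT (-0.87) and UMPS of pyrimidine synthesis (-0.84) lay under 2-fold.

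A list of ribosome assembly genes and other MYC targets showed a median of -0.81. All 22 that passed were below 0, 7 at 2-fold, against 2.79% of all genes. NOP16, a nucleolar protein under MYC control, read 8.75, 7.38, 7.09 and 7.85 in the order used above (-1.66). RRP1B differed by -1.44, MRTO4 by -1.38, RRS1 by -1.20, RRP12 by -1.07 and NOP14 by -1.06, all of them assembly factors of the ribosomal subunits. MYC itself read 10.19, 10.35, 10.34 and 10.25, a difference of 0.15. In the MIF-KO pair 20 of 22 list members were above 0 and the median was 0.43. The exchanged median was 0.05.

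Motifs known from these programmes were searched in the same promoter windows on both strands. An E2F site, written as TTTCCCGC or TTTGGCGC, was found in 10 of 18 replication gene promoters (55.6%), against 2.31% of all promoters and 3.93% of those of the genes that passed the filter. The E-box CACGTG, which MYC and other factors bind, was found in 7 of 15 promoters of the list of ribosome assembly genes and MYC targets (46.7%), against 7.43% and 10.7%. Each motif was chosen as one known from the programme of its list, and the latter list was partly chosen as MYC targets. Both shares are therefore in part built in, and are a description. The bases before the start are shown for GINS2 and PCNA, the sliding clamp (-0.71 in the control pair), and for the spermidine synthase SRM (-1.02), with the motif in capitals.
GINS2 (GRCh38.p14, minus strand, chr16:85688955-85689204): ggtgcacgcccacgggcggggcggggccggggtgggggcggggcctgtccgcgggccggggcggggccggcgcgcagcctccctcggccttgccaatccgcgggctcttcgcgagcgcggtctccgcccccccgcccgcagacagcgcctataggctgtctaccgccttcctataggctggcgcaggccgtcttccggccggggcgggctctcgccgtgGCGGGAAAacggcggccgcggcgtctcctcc
PCNA (GRCh38.p14, minus strand, chr20:5126623-5126872): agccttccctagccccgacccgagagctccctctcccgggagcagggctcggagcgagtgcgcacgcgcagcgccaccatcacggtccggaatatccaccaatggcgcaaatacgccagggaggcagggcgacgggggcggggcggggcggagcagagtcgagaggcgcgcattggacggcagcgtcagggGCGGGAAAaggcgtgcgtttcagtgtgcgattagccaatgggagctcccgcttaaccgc
SRM (GRCh38.p14, minus strand, chr1:11060019-11060268): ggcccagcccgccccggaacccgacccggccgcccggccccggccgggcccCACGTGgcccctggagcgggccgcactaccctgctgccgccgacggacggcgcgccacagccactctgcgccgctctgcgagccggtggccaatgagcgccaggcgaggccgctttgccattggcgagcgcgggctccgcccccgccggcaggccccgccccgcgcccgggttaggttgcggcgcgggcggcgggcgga
The match began 31 bases before the start of GINS2, 59 before that of PCNA and 199 before that of SRM.

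**Figure D4:**
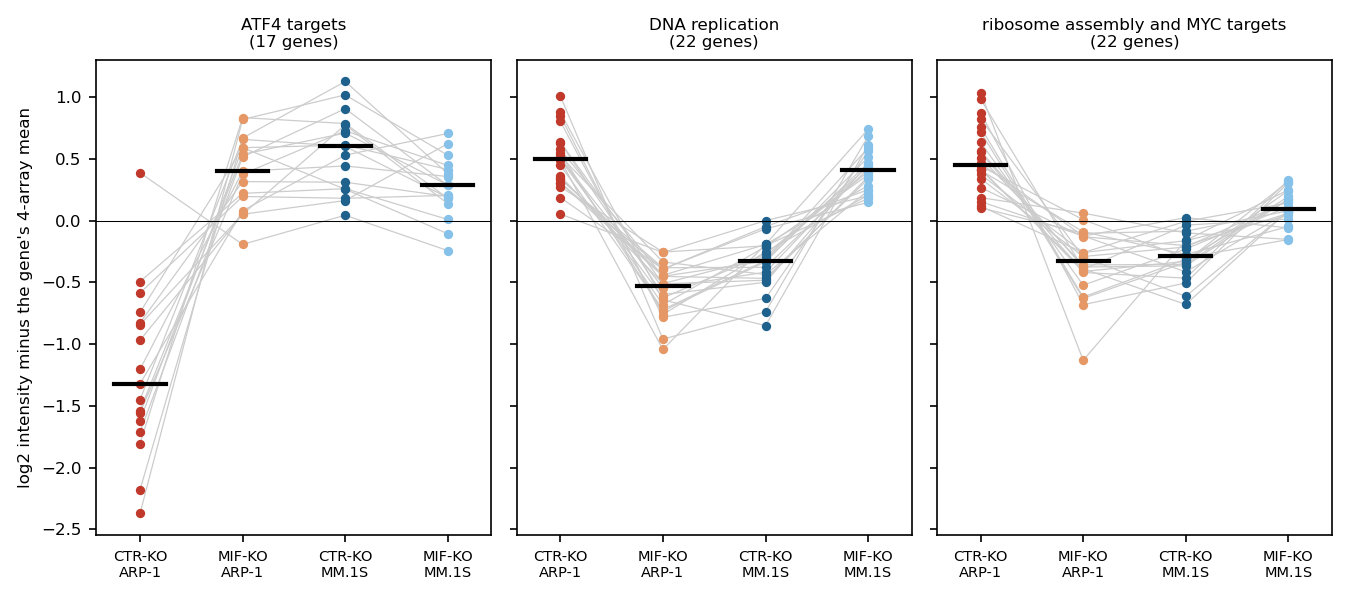
Log2 intensity minus the gene's mean over the 4 arrays for members of 3 lists that passed the filter (points, 1 line per gene), with the list median on each array as a black bar. ATF4 targets have medians of -1.32 on CTR-KO ARP-1 and 0.60 on CTR-KO MM.1S, DNA replication genes 0.50 and -0.32, and ribosome assembly genes 0.45 and -0.29.

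Mitochondrial import and quality control genes had a median of -0.41. At least 2-fold lower were 5 of 23 and higher 0, against 2.79% and 3.88% of all genes. The inner membrane scaffold PHB1 differed by -1.37, the import chaperone TIMM8A by -1.29, the import pore TOMM40 by -1.17, the receptor TOMM34 by -1.06 and the chaperone TRAP1 by -1.09. The MIF-KO pair had a median of 0.39 with 21 of 23 above 0. Cytosolic heat-shock genes had a median of -0.49, with HSPH1 and the co-chaperone STIP1 (-1.03) 2-fold lower among 11. HSPA1A (-0.70 and -0.32 in the MIF-KO pair) and HSPA1B (-0.73 and -0.27), near-identical inducible copies whose probe sets can share signal, were lower in MM.1S in both pairs. Antioxidant genes had a median of -0.22, with PRDX1, a peroxidase that binds MIF, at -1.27 in the control pair and 1.10 in the MIF-KO pair, and catalase CAT at 0.70 and 0.28.

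Of the 6 translocation partners and D cyclins that passed, 0 were 2-fold higher and 1 was 2-fold lower in the control pair, and 2 were 1.5-fold lower. The shares of all genes were 3.88%, 2.79% and 11.1%. MAF read 9.06 and 9.61 on the CTR-KO and MIF-KO arrays of ARP-1, and 9.62 and 9.08 on those of MM.1S. The control difference was 0.56 and that of the MIF-KO pair -0.53, so the arrays of the lines overlapped, and MAF was well above the low-signal mark in both. CCND2, the D cyclin that MAF drives, read 10.25, 9.94, 9.40 and 9.83 (-0.85). FGFR3, the partner of another class, lay between 4.43 and 4.56 on all arrays, under the filter, and NSD2 of the same locus differed by 0.24. CCND1 differed by 0.18 and CCND3 by -1.01. Of reported MAF targets 4 passed: the chemokine receptor CCR1 (-1.06 and -0.20 in the MIF-KO pair) and CCND2 were lower, and the cytoskeletal RND3 (0.51 and -0.44) and the mTOR inhibitor DEPTOR (0.23 and -0.89) had opposite signs in the pairs.

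Targets of immunomodulatory drugs, which bind the ubiquitin ligase receptor CRBN and send the lymphoid factors IKZF1 and IKZF3 for degradation, were measured in both lines. IKZF3 read 6.66 and 6.61 on the ARP-1 arrays and 7.39 and 7.46 on the MM.1S arrays, higher in MM.1S by 0.73 and 0.85. CRBN read 7.60 and 7.78 against 8.37 and 8.11 (0.78 and 0.33). The arrays of the lines did not overlap for these 2 of 8 members, beside 27.4% of all genes. IKZF1 differed by -0.18 and 0.38, IRF4, which lies downstream of both factors, by 0.11 and -0.19, and the ligase scaffolds CUL4A by -0.24 and 0.41 and CUL4B by 0.56 and -0.22. COPS5, of the signalosome that controls such ligases, differed by -0.12 and 0.69, and the transporter chaperone BSG by 0.01 and -0.12. No member of the list was 2-fold apart in the control pair.

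In a list of checkpoint and surface genes, the arrays of the lines did not overlap for 3 of 10 members, beside 27.4% of all genes. In MM.1S 2 of these were higher and 1, SLAMF7, was lower. SLAMF7, the target of elotuzumab, read 6.90 and 6.93 on the ARP-1 arrays and 5.96 and 6.33 on the MM.1S arrays (-0.95 and -0.60). CD38 differed by -1.47 in the control pair and 0.43 in the MIF-KO pair, the checkpoint ligand HHLA2 by -1.32 and 0.83, the adaptor LAX1 by -1.13 and 0.25, and syndecan SDC1, the classical plasma cell antigen, by -0.48 and 1.36. CD48 was higher in the control pair (0.64, and -0.46 in the MIF-KO pair). Of 10 members that passed, 3 (CD38, HHLA2 and the adaptor LAX1) were 2-fold lower on CTR-KO MM.1S and 0 higher. The shares of all genes were 2.79% and 3.88%. The median was -0.23, with 5 members above 0 and 5 below. In the MIF-KO pair 7 of 10 were above 0, with a median of 0.18.

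Glucocorticoid response genes gave no common direction in the control pair, where 3 of 5 that passed were above 0 and 2 below. KLF9, an induced repressor, read 5.98, 6.82, 7.78 and 7.15 in the order CTR-KO ARP-1, MIF-KO ARP-1, CTR-KO MM.1S and MIF-KO MM.1S (1.79). The receptor co-chaperone FKBP5 differed by -0.92 and PER1 of the clock by 0.37. Both MM.1S arrays lay above both ARP-1 arrays for KLF9 and PER1, 2 of 5 members. The lines did not overlap for 27.4% of all genes. Of 5 members that passed, 2 (KLF9 and TXNIP) were 2-fold higher and 0 lower, against 3.88% and 2.79% of all genes, with a median of 0.37. In the MIF-KO pair 4 of 5 were above 0, 0 were 2-fold apart and the median was 0.14.

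Cytokine and transcription factor genes showed wide differences within lists whose medians lay between -0.22 and 0.19. Beside the counts below, 3.88% of all genes were 2-fold higher and 2.79% lower. The interleukin-6 receptor IL6R, through which the main growth factor of myeloma acts, read 9.53, 9.25, 7.96 and 9.86 in the same order (-1.57). Here CTR-KO MM.1S was the array apart. The interleukin-21 receptor IL21R differed by 1.87 and -0.26 in the MIF-KO pair, and the list of interleukin-6, JAK and STAT3 genes had a median of 0.17 with 1 of 14 higher and 1 lower at 2-fold. NF-kappaB genes had a median of 0.19 with 0 of 12 at 2-fold, where RELB of the alternative pathway was at 0.94, its partner NFKB2 at 0.70, and the pathway's deubiquitinase CYLD at 0.89. The AP-1 and ERK output genes (21 passed) had a median of -0.22, with 15 below 0, and 0.22 in the MIF-KO pair. At 2-fold 2 of the 21 were higher and 4 lower. JUN differed by 1.82 and -1.12, FOS by -1.54 and -0.33, the phosphatases DUSP2 by -1.76 and DUSP5 by -1.64, and FOSL1 by -1.33.

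The immune recognition lists given here had medians between -0.29 and 0.20. At 2-fold, 3.88% of all genes were higher and 2.79% lower. HLA class I presentation had a median of 0.20 (8 passed), with HCP5 at 2-fold, B2M, the light chain of class I, at 0.29 and the peptidase ERAP1 at 0.23. Interferon-stimulated genes had a median of 0.10 (14 passed), with the antiviral membrane protein IFITM1 at 1.01 as the 1 gene at 2-fold. IRF9 differed by 0.42 in the control pair and -1.44 in the MIF-KO pair. The 7 Toll-like receptor genes had a median of -0.29, with 5 below 0. TLR4, the lipopolysaccharide receptor, was the 1 of them at 2-fold (-1.44, and 2.21 in the MIF-KO pair). Among 11 chemokine and homing receptor genes CCR1 was the 1 at 2-fold, S1PR1, which guides exit from tissue, lay at -0.99, and CXCR4, the marrow homing receptor and a receptor of MIF, at 0.41. Adhesion genes had a median of 0.02 (10 passed), with NCAM1 at 1.43 and ALCAM at 1.02 2-fold higher, each of opposite sign in the MIF-KO pair (-1.08 and -0.48).

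Genes of cell death differed in both directions. BCL2, the survival factor and target of venetoclax, read 7.65, 9.66, 9.58 and 8.53 in the order CTR-KO ARP-1, MIF-KO ARP-1, CTR-KO MM.1S and MIF-KO MM.1S (1.93). BAK1, which opens the mitochondrial membrane, read 9.89, 8.05, 8.21 and 8.40 (-1.68). CTR-KO ARP-1 was the lowest array for BCL2 and the highest for BAK1. The inducer BCL2L11 differed by 1.02 and -1.19 in the MIF-KO pair, and PMAIP1, named above, by 1.13 and 0.82. Of 14 members that passed, 3 were higher and 1 lower at 2-fold, against 3.88% and 2.79% of all genes, with a median of 0.08. Among p53 targets (11 passed, median 0.01), SESN2 was 2-fold higher and the nuclease AEN 2-fold lower (-1.20).

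Metabolic and secretory lists had medians between 0.03 and 0.35 in the control pair, and between -0.26 and 0.10 in the MIF-KO pair. Endoplasmic reticulum chaperones had a median of 0.03 (17 passed), with ERN1 and the oxidase ERO1B (1.54) 2-fold higher and SDF2L1 (-1.08) 2-fold lower. In the MIF-KO pair 14 of these 17 were below 0, with a median of -0.24. Glycolysis and hypoxia genes had a median of 0.23 (17 passed, 6 higher and 0 lower at 2-fold, against 3.88% and 2.79% of all genes), led after DDIT4 by MXI1 (1.55) and VEGFA (1.51). Cholesterol and fatty acid genes had a median of 0.35 (22 passed, 2 higher at 2-fold), namely the desaturase FADS1 (1.87) and the regulator SREBF1 (1.21). The median of autophagy and lysosome genes was 0.17 (22 passed, 3 higher at 2-fold). These 3 were the receptor OPTN (2.44, and -0.55 in the MIF-KO pair), GABARAPL1 (1.52 and -0.42) and cathepsin CTSZ (1.39 and -0.18). In the MIF-KO pair 18 of these 22 were below 0, with a median of -0.26. The lysosomal CTSA was lower in both pairs (-0.74 and -0.48). The 15 annexin and membrane repair genes had a median of 0.13. At 2-fold EHD3 was higher (1.18, and -1.55 in the MIF-KO pair), and MYOF and ANXA1 (-1.56) were lower. ANXA1 was at 2.50 in the MIF-KO pair.

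**Figure D5:**
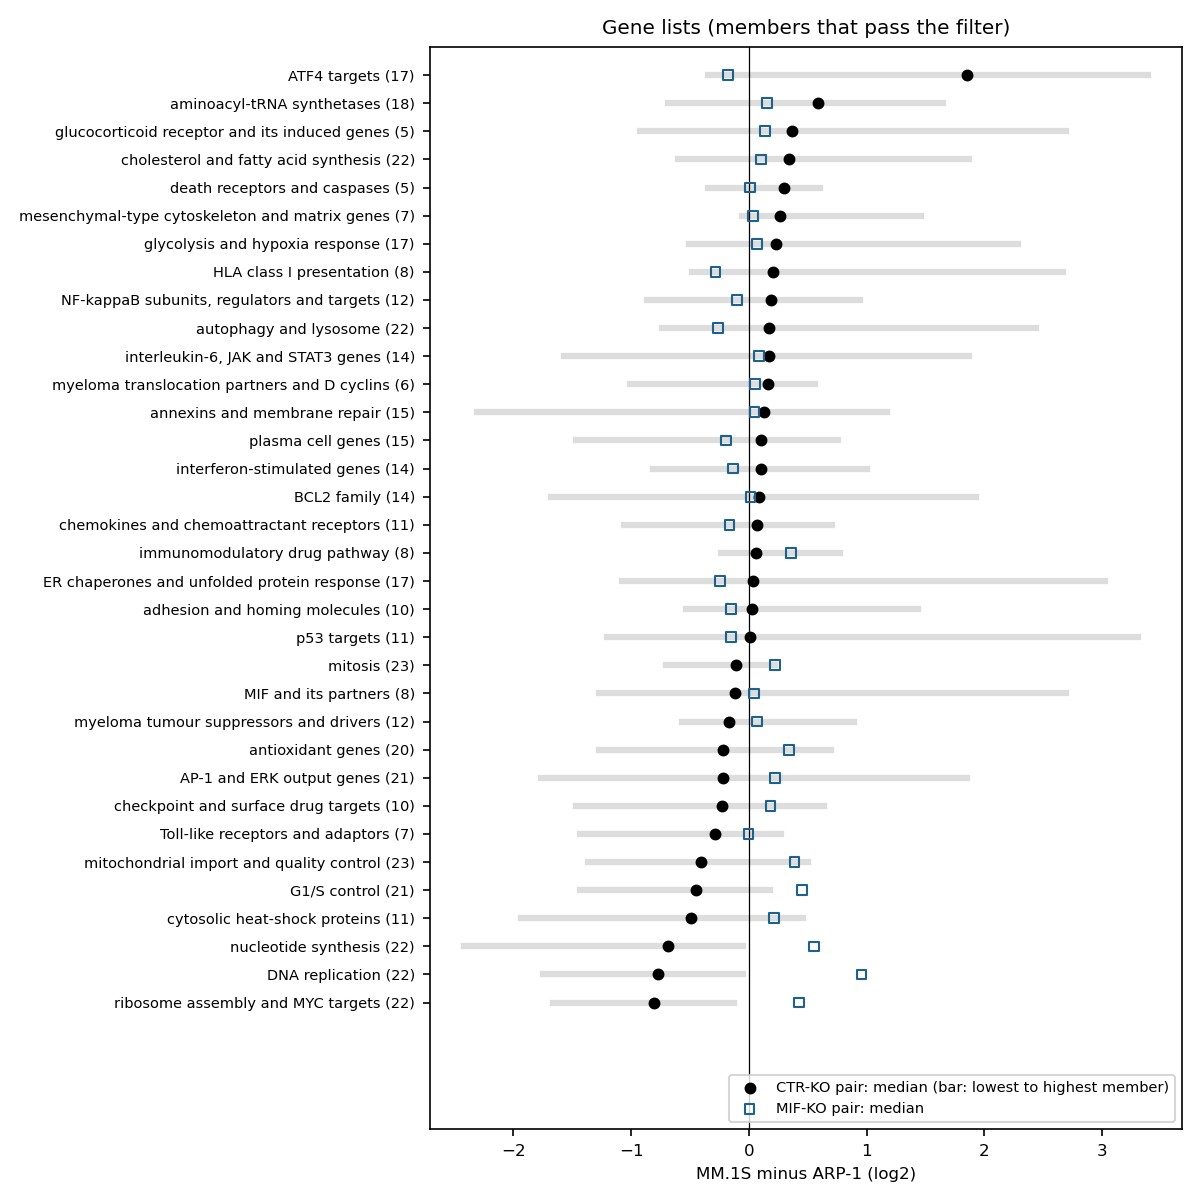
Median difference, MM.1S minus ARP-1 in log2 units, of 34 gene lists with at least 5 members that passed the filter (number in brackets), for the control pair (black) and the MIF-KO pair (open squares); grey bars run from the lowest to the highest member in the control pair. ATF4 targets stand out at 1.85 and ribosome assembly genes at -0.81, and several lists have medians of opposite sign in the pairs.

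Of 39 named markers of other cell types, 15 lay under the low-signal mark on all arrays and 9 passed the filter. Of 10 T cell and natural killer cell markers 3 passed the filter, of 9 myeloid markers 2, of 11 epithelial markers 3, of 6 stromal and endothelial markers 0 and of 3 erythroid markers 1. The myeloid marker CD14 lay between 2.99 and 3.35, EPCAM between 2.88 and 3.02 and the stromal DCN between 2.35 and 2.55, all under the low-signal mark. The epithelial keratin KRT18 (7.33 to 7.67) and CLDN3 (6.56 to 7.02), the erythropoietin receptor EPOR (6.44 to 6.73) and the T cell marker CD7 (5.67 to 5.98) were above it on all arrays. CD68, a lysosomal protein of macrophages that other cells also make, was the 1 marker at 2-fold (-1.49). The summed intensity of the 9 myeloid markers was 339 and 175 on the CTR-KO and MIF-KO arrays of ARP-1, and 201 and 244 on those of MM.1S. Without CD68 the other 8 summed to 112, 118, 120 and 122 in the same order. These are transcripts read in sorted cell lines, and the presence of other cell types was not tested.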

How the data were processed

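RNA of 4 sorted cell populations was labelled with the WT PLUS kit and hybridised to 1 array each. The authors deposited linear intensities per probe set, and RMA and limma are named per the submitters' processing notes, with no version given in the sources used here. Intensities were turned to log2 with no further normalization. Of 53617 probe sets 16098 carried 1 gene symbol and 37519 none, and unnamed ones were not used here. Each of 14884 genes took its probe set with the highest mean over the 4 arrays, and genes below the median gene (log2 4.97) were left out, leaving 7442. Differences were computed with Python 3.11.15, numpy 2.4.6 and pandas 2.3.3, and the steps were tested on simulated data. No test was possible with 1 array per group. Named genes were MIF, the 12 largest differences per direction, the 8 per direction largest in both pairs (microRNAs, long intergenic RNAs and the like not named), the 8 per direction that differed most between the pairs, up to 6 per list by size, and all translocation and drug pathway genes, beside defining cell type markers and genes shown for a promoter motif. The members and the 45 gene lists were chosen with earlier results of these data known. Promoters and microRNAs came from RefSeq (GRCh38.p14). Alternatives were the other ARP-1 array as control, the filter, the fold, the scaling, the probe set rule and a pseudocount.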

Additional observations from a re-analysis of the deposited data

Results flagged for a closer look

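Opposite directions in the control pair and in the MIF-KO pair were seen for 4 of the list medians that were at least 1.5-fold from 0 in the control pair, and for 25 of the named genes that were at least 2-fold apart in both pairs, each given as MM.1S minus ARP-1 in log2 units, the control pair first. Of 34 list medians 22 had opposite signs in the pairs at any size, and 52 of all genes were 2-fold apart in opposite directions. With 1 array per group the difference between the pairs was not tested, and the genes were picked for it. The median of DNA replication genes was -0.77 and 0.96, that of ribosome assembly genes -0.81 and 0.43, that of nucleotide synthesis genes -0.68 and 0.56, and that of ATF4 targets 1.85 and -0.18.

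Among replication and cell cycle genes, GINS2 lay at -1.75 and 1.64, DSCC1 at -1.73 and 1.25, TIPIN at -1.48 and 1.34, MCM2 at -1.13 and 1.06, CDC25A at -1.44 and 1.35 and CCNE2 at -1.15 and 1.06. Other genes lower in the control pair were ACTL8 (-2.65 and 2.01), MYOF (-2.31 and 1.56), POLR3G (-2.18 and 1.37), GLDC (-2.14 and 1.01), ANXA1 (-1.56 and 2.50), CD68 (-1.49 and 1.10), TLR4 (-1.44 and 2.21), PRDX1 (-1.27 and 1.10), RRS1 (-1.20 and 1.38) and TRAP1 (-1.09 and 1.26).

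Higher in the control pair and lower in the other were LGALS17A (3.37 and -1.18), SYT11 (2.76 and -1.21), HCP5 (2.67 and -1.84), BCL2 (1.93 and -1.13), JUN (1.82 and -1.12), NCAM1 (1.43 and -1.08), EHD3 (1.18 and -1.55) and BCL2L11 (1.02 and -1.19). ASS1, the argininosuccinate synthase of arginine supply, was at 1.86 and -2.39.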

How the results depend on the processing

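With the ARP-1 array titled MIF-KO as the control, 25 genes were 2-fold higher in MM.1S and 41 lower, in place of 289 and 208. Counting as reversed a list median of at least 1.5-fold or a gene of at least 2-fold that changed sign, the medians of replication genes (0.22) and ribosome assembly genes (0.047) reversed, and those of nucleotide synthesis (-0.068), G1/S control (0.18), Toll-like receptors (0.34) and ATF4 targets (0.11) moved by at least 1.5-fold. The other 28 of 34 list medians moved by less, though 19 of the 34 changed sign. Of 240 named genes 80 changed sign, and 32 of them, which were 2-fold apart before, reversed: ACTL8 0.58, ALCAM -0.25, ANXA1 2.07, ASS1 -0.76, BAK1 0.16, BCL2 -0.080, BCL2L11 -0.53, CCNE2 0.045, CD68 0.51, CDC25A 0.32, CLSPN 0.51, DUSP2 0.21, E2F3 0.20, EHD3 -1.92, GINS2 0.22, HCP5 -0.085, MCM2 0.10, MRTO4 0.18, MYOF 0.32, NCAM1 -0.52, NDRG1 -0.19, NOP14 0.29, RPP40 0.10, RRP12 0.31, RRS1 0.97, STC2 -0.048, SYT11 -0.36, TIMELESS 0.030, TIPIN 0.15, TLR4 1.04, TOMM40 0.14 and TRAP1 0.17. The cause was not tested. A stricter filter on mean intensity left 184 higher genes, from fewer genes tested, and a glucocorticoid median of 1.08. The counts were 834 and 829 at 1.5-fold and 36 and 8 at 4-fold. Equal medians, quantile normalization, no filter, the mean of all probe sets and a pseudocount of 16 kept both counts within 1.5-fold and all 34 list medians within 1.5-fold. No paired analysis was possible because each group holds 1 array, so the groups share fewer than 2 replicate numbers. Low signal limits genes near log2 3.72.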

Other observations

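The remaining lists held few named genes or lay near 0. Of cancer-testis antigens 2 of 10 named members passed the filter, ACTL8 and the melanoma antigen PRAME, which was at 0.85 in the control pair. The immunoglobulin light-chain-like genes IGLL5 and IGLL1, the 2 immunoglobulin genes named here, were at -0.54 and -0.78. The vault protein MVP, the 1 efflux gene, was at -0.51 in the control pair and -0.92 in the MIF-KO pair. Of mesenchymal-type genes (7 passed, median 0.26) fibronectin FN1 was 2-fold higher (1.46, and -0.13 in the MIF-KO pair). B cell genes had a median of -0.33 (4 passed), myeloma suppressors and drivers -0.17 (12 passed) and caspase and death receptor genes 0.30 (5 passed), with 0 members 2-fold apart in each. The 2 HLA class II genes, CTSS and RFXAP, were at 0.44 and 0.31. MIF and its partners had a median of -0.12 (8 passed), with TXNIP 2-fold higher and PRDX1 2-fold lower.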
